A study of Ovis aries with 2 samples.

Results

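Neuropeptides are short signalling proteins that neurons cut from longer precursors and store in dense-core vesicles. The 8 genes described here are SST, VIP, NPY, PNOC, TAC1, PENK and CRH, which encode such precursors, and PCSK1, a prohormone convertase that cuts precursors inside the vesicles. They were taken by their symbols from the 12652 gene symbols of the count tables and all 8 matched a symbol in the RefSeq gene table of the sheep assembly ARS-UI_Ramb_v3.0. In the mammalian cortex SST, VIP and NPY are textbook markers of inhibitory interneurons, and the peptides act mostly through G protein-coupled receptors on neighbouring neurons.

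Nuclei came from the cerebral cortex of wild-type adult female Rambouillet sheep aged 18 to 36 months, and the series text names 1 animal. Tissue was split between a post-processed preparation, in which debris and red blood cells were removed before nuclei were isolated, and a pre-processed preparation isolated directly. For the post-processed sample the label for treatment says that no such removal was done, against its title and the series text, so the direction of that comparison rests on those. No treatment was given to the animal, both libraries carry the same batch label, and each condition is 1 library, so no difference below has a replicate check.

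The post-processed table held 905 barcodes with a median of 146 UMIs (unique molecular identifiers, which count captured RNA molecules), and the pre-processed table held 2125 with a median of 2524, where the series text states about 5000 nuclei per condition. The libraries shared 0 barcode sequences. In the pre-processed library, clustering without the 8 genes gave 186 inhibitory neuron-like nuclei and 788 excitatory neuron-like nuclei. The inhibitory nuclei were 86 of a class like interneurons of the medial ganglionic eminence (MGE-like, led by ALK, NXPH1, KCNC2, LHX6 and GRIN3A) and 100 of a class like those of the caudal ganglionic eminence (CGE-like, led by TRPC7, RELN, IGF1, ERBB4 and KIT). The eminences are the embryonic sources of cortical interneurons. A further 412 nuclei formed a shallow cluster in which 9 of 11 inhibitory markers were at least 1.5-fold over the median of the other clusters. Excitatory markers were raised there nearly as much, with a mean log2 ratio of 0.92, against 1.17 for the inhibitory markers. The cluster stayed unnamed because its 10 leading genes held 0 of the inhibitory markers and 3 markers of other classes. Levels are given as CPM, the UMIs of a gene per 1000000 UMIs of the listed genes in the same nuclei, and intervals are exact 95% intervals that cover counting error only. Because 3′ counts depend on where a transcript is captured, levels are compared between groups of nuclei and not between genes. A nucleus with at least 1 UMI of a gene is called its carrier, and the share of carriers in the 299 oligodendrocyte-like and microglia-like nuclei, with median depths of 1540 and 1306 UMIs, serves as the background from free RNA.

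The 6 peptide genes SST, VIP, NPY, PNOC, TAC1 and CRH were at least 2-fold higher in inhibitory than in excitatory nuclei, whereas PENK and PCSK1 were at least 2-fold lower there. Of the 7510 genes compared in this way, 9.59% were at least 2-fold higher and 12.6% at least 2-fold lower. The log2 ratio of inhibitory over excitatory nuclei was 4.57 for SST (4.05 to 5.17), 4.45 for NPY (2.78 to 7.06), 4.01 for VIP (3.32 to 4.79) and 3.83 for PNOC (3.36 to 4.33). It was 2.83 for TAC1 (1.77 to 3.95), 2.15 for CRH (1.05 to 3.21), -1.57 for PCSK1 (-1.83 to -1.33) and -2.64 for PENK (-5.16 to -1.28). Between the interneuron classes, 7 of the genes had enough UMIs to compare. SST, NPY and PNOC were at least 2-fold higher in MGE-like than in CGE-like nuclei, VIP and PCSK1 were at least 2-fold lower, and TAC1 and CRH lay within 2-fold, against a background in which 9.00% of 5468 genes were higher and 9.00% lower.

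**Figure D1:**
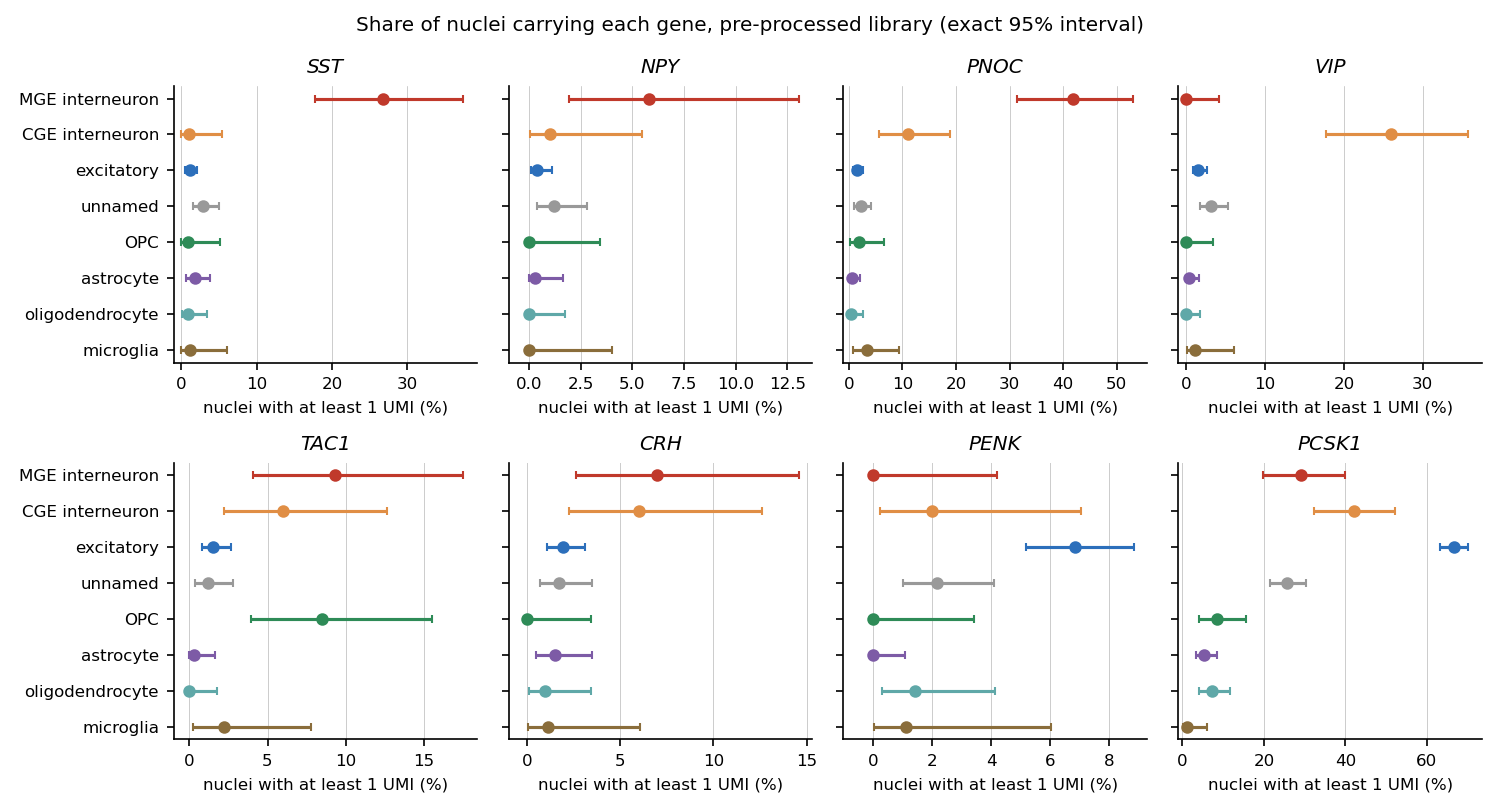
Share of nuclei with at least 1 UMI of each gene, by cell class of the pre-processed library; points are percent of nuclei and lines are exact 95% intervals. SST and PNOC were highest among MGE-like nuclei (26.7% and 41.9%), VIP among CGE-like nuclei (26%) and PCSK1 among excitatory nuclei (66.8%).

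SST, the precursor of somatostatin, had 219 UMIs in 55 nuclei. MGE-like nuclei held 153 of these UMIs at 284 CPM (241 to 333), and 23 of the 86 were carriers (26.7%, 17.8 to 37.4). CGE-like nuclei held 2 UMIs in 1 nucleus (3.35 CPM), excitatory nuclei 34 UMIs in 9 nuclei (5.67 CPM), and the background was 3 of 299 nuclei (1.0%, 5.63 CPM). SST in MGE-like nuclei thus stood well above both other neuron classes and the background. It was also uneven among its carriers: the 3 richest nuclei held 83 UMIs, or 54.2% of the SST of the class, and the richest held 34. Without those 3 the class stood at 139 CPM.

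PNOC, the precursor of nociceptin, was found in both interneuron classes, and more often in the MGE-like class. Among MGE-like nuclei 36 of 86 carried it (41.9%, 31.3 to 53.0) at 212 CPM (175 to 254), and among CGE-like nuclei 11 of 100 did (11%, 5.62 to 18.8) at 35.1 CPM. The log2 ratio of MGE-like over CGE-like nuclei was 2.56 (1.91 to 3.34). Excitatory nuclei stood at 8.33 CPM, near the background of 7.51 CPM in 4 of 299 nuclei, and 34 of their 50 PNOC UMIs lay in 2 nuclei.

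NPY, the precursor of neuropeptide Y, was rare, with 27 UMIs in 15 nuclei. Of the 86 MGE-like nuclei 5 carried it (5.81%, 1.91 to 13) at 24.2 CPM, and all 5 were also SST carriers. CGE-like nuclei held 1 UMI. The unnamed cluster held 8 UMIs in 5 of its 412 nuclei, at 12.5 CPM (5.38 to 24.6), so that NPY carriers were as many there, and it also stood at 28.0 CPM of SST and 31.1 CPM of VIP. In the background nuclei 0 of 299 had a UMI, which allows a share of up to 1.0%.

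VIP, the precursor of vasoactive intestinal peptide, marked the other interneuron class. Of the 100 CGE-like nuclei 26 carried it (26%, 17.7 to 35.7), with 68 UMIs, 114 CPM (88.3 to 144) and at most 11 UMIs in a nucleus. Among MGE-like nuclei 0 of 86 had a UMI, which allows a share of nuclei with a UMI of up to 3.49% and does not limit how many express the gene. With 3 UMIs over the MGE-like class as the limit, VIP was at least 20.4-fold higher in CGE-like nuclei, and the exact interval of the log2 ratio of MGE-like over CGE-like nuclei reached -4.01. Excitatory nuclei stood at 3.67 CPM in 12 nuclei, and the background was 1 of 299 nuclei (0.334%).

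**Figure D2:**
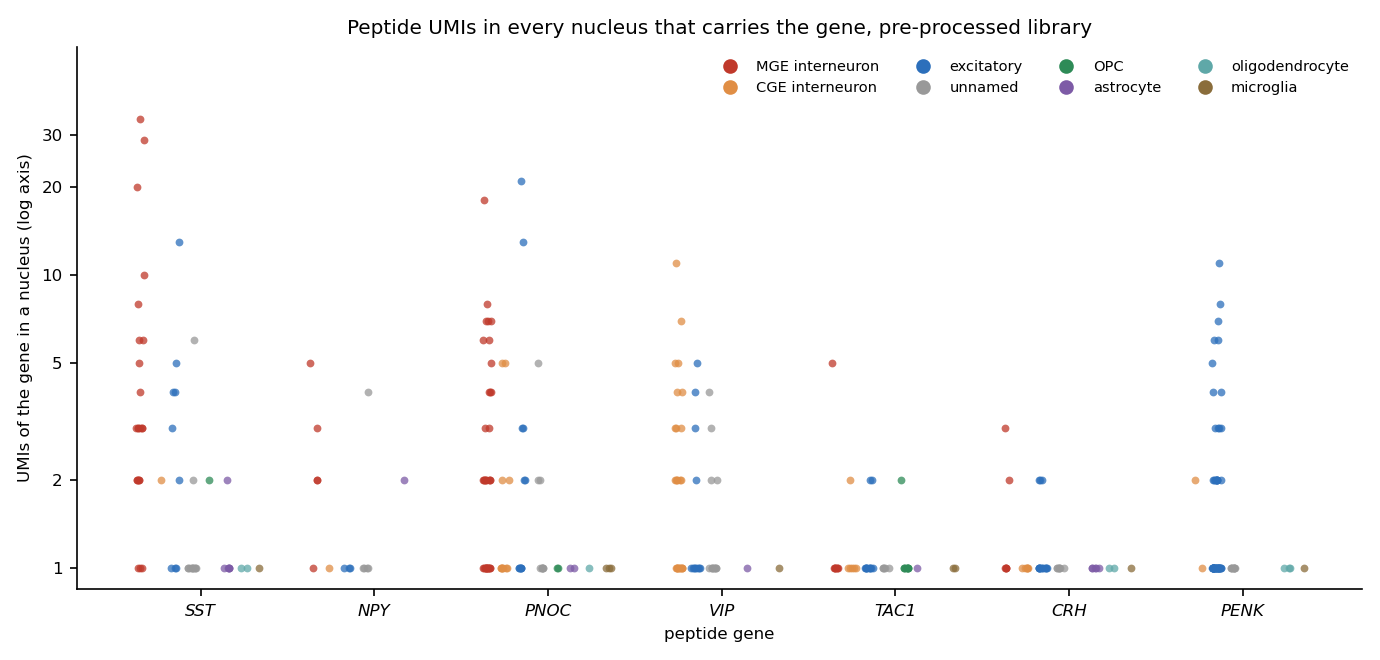
UMIs of each peptide gene in each carrier nucleus of the pre-processed library, by cell class, on a log axis; each point is 1 nucleus. SST carriers reached 34 UMIs among MGE-like nuclei and PENK carriers 11 among excitatory nuclei, while CRH did not pass 3 UMIs in any nucleus.

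Within the MGE-like class, nuclei with SST and nuclei with PNOC alone differed in other genes. SST without PNOC was found in 15 nuclei, both in 8, PNOC without SST in 28 and neither in 35, and the share with PNOC was 34.8% among SST carriers and 41.9% in the whole class. ERBB4, the neuregulin receptor, stood at 2662 CPM in nuclei with SST alone and 1534 CPM in those with both, against 28589 CPM in those with PNOC alone. GRIK1, a kainate receptor subunit, ran the other way, at 12220 and 12973 CPM in the SST nuclei, against 790 CPM in those with PNOC alone. Nuclei with neither peptide stood at 19638 CPM of ERBB4 and 5535 CPM of GRIK1. High ERBB4 was thus not particular to nuclei with PNOC. These contrast genes, and the others of this paragraph and the next, were chosen after their values were seen.

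The differences in ERBB4 and GRIK1 were seen nucleus by nucleus, with a small overlap. ERBB4 ran from 0 to 8655 CPM with a median of 1066 over the 23 SST carriers, and from 6389 to 38195 CPM with a median of 29524 over the 28 with PNOC alone. Of the 28, 27 lay above every SST carrier. GRIK1 ran from 2253 to 29609 CPM over the SST carriers, of which 21 of 23 lay above every nucleus with PNOC alone. The 8 nuclei with both peptides sat with the SST nuclei on each gene. RELN, the secreted glycoprotein reelin, stood at 1100 and 1246 CPM in nuclei with SST alone and with both, against 50.9 CPM in those with PNOC alone, and the collagen gene COL6A2 at 766 and 783 against 42.5 CPM. KCNC2, a fast potassium channel subunit, was lower in the SST nuclei, at 3487 and 3291 CPM against 7357 CPM. NPY was present at 78.6 and 79.9 CPM in the SST nuclei, and no nucleus with PNOC alone had a UMI of it. PVALB, the marker of basket interneurons, had 6 UMIs in nuclei with PNOC alone and 8 in those with neither peptide, and 0 in SST carriers. The median depth was 6603, 8171 and 8466 UMIs in nuclei with SST alone, both and PNOC alone, but 2593 in those with neither, where a missing UMI says less.

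**Figure D3:**
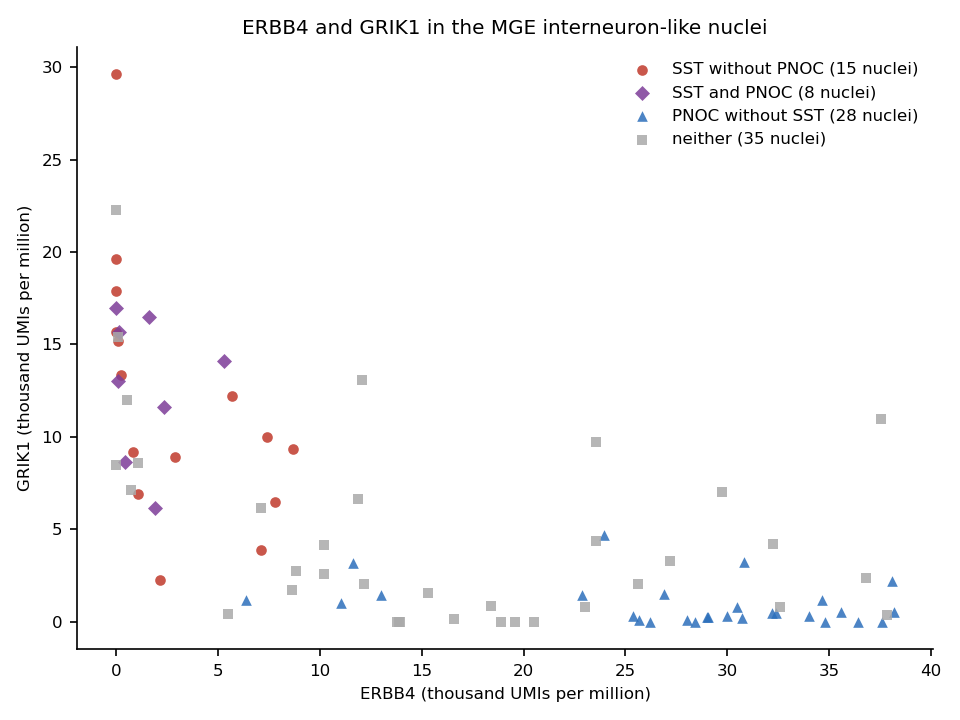
ERBB4 and GRIK1 level (CPM) in each MGE-like nucleus of the pre-processed library, by whether it held SST, PNOC, both or neither; each point is 1 nucleus. Nuclei with PNOC alone had a median ERBB4 level of 29524 CPM, against 1066 CPM in the SST carriers and 13931 CPM in nuclei with neither.

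VIP was unevenly spread over the CGE-like class. At the finer clustering of resolution 1, made without the 8 genes too, a cluster of 72 nuclei led by IGF1, PDE3A and CNR1 held VIP in 30 (41.7%), while a cluster of 55 led by RELN, RERG and NDNF held it in 0, which allows up to 5.45%. Both took in nuclei that the coarser clustering placed elsewhere. PNOC was distributed the other way, with 2 carriers among the 72 and 10 among the 55 (18.2%), and so was TAC1, with 0 and 6. Among the CGE-like nuclei as first clustered, VIP carriers stood at 268 CPM of RELN against 3568 CPM in the other nuclei, at 39.0 against 380 CPM of the chemokine CXCL14, and at 11.2 against 449 CPM of the vesicle protein SV2C. IGF1, an insulin-like growth factor, stood at 630 against 215 CPM, CNR1, the CB1 cannabinoid receptor, at 491 against 268 CPM, and the channel gene ASIC4 at 725 against 251 CPM. The contrast genes of this comparison were also chosen after their values were seen. PNOC itself was at 5.6 CPM in VIP carriers and 47.8 CPM in the other CGE-like nuclei.

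PENK, the precursor of the enkephalins, had most of its UMIs in excitatory nuclei. These held 115 of its 131 UMIs in 54 of 788 nuclei (6.85%, 5.19 to 8.85) at 19.2 CPM, while MGE-like nuclei held none in 86, which allows up to 3.49%. With 3 UMIs over the MGE-like class as the limit, the excitatory level was at least 3.44-fold higher. The exact interval of the MGE-like level reached 6.85 CPM. CGE-like nuclei held 3 UMIs in 2 nuclei. The background was 4 of 299 nuclei at 7.51 CPM, and the excitatory level over it was uncertain, with a log2 ratio of 1.19 (-0.04 to 3.25). PENK was concentrated in part of the class. The cluster led by FOXP2, SEMA3E and SYT6, genes used as markers of deep-layer cortical neurons, had 11 carriers of 64 (17.2%, 8.90 to 28.7) at 64.1 CPM (41.1 to 95.4), and the cluster led by FREM1, DKK2 and LDB2 had 39 of 428 (9.11%) at 26.1 CPM. The ABI3BP and LAMB1 clusters had 2 carriers each, and that led by NTNG1, IQCJ and ESR2 had 0 of 44, which allows up to 6.82%. With every nucleus thinned to 900 UMIs the FOXP2 cluster kept 9.38% carriers and the FREM1 cluster 0.70%, against 1.0% in the background nuclei (3 of 299), so the FREM1 cluster was not above background there. The whole excitatory class kept 1.27% (10 of 788, 0.61 to 2.32), and 6 of those carriers were in the FOXP2 cluster. The class as a whole was thus not clearly above background at that depth.

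TAC1, the precursor of substance P and neurokinin A, was sparse, with 51 UMIs in 43 nuclei, 38 of which held 1 UMI. MGE-like nuclei stood at 22.3 CPM in 8 nuclei and CGE-like nuclei at 11.7 CPM in 6. Its level was as high outside neurons: of 106 oligodendrocyte precursor-like nuclei 9 carried it (8.49%, 3.96 to 15.5), at 36.1 CPM (17.3 to 66.4) with 10 UMIs. Relative to the oligodendrocyte-like and microglia-like nuclei, at 3.75 CPM, the log2 ratio of the precursor-like class was 3.27 (1.04 to 6.50), relative to excitatory nuclei 3.95 (2.62 to 5.23), and relative to inhibitory nuclei 1.11 (-0.16 to 2.29). These carriers were not deeper than the rest of the class, with median depths of 1505 and 2001 UMIs, and at 900 UMIs per nucleus 5.66% still carried TAC1. They stood at 743 CPM of PDGFRA, the growth factor receptor that marks these precursors, against 1248 CPM in the other precursor-like nuclei, at 1524 against 1060 CPM of the neuronal gene SYT1, with 25 of the 41 SYT1 UMIs in 1 nucleus, and at 372 against 424 CPM of the neuronal gene CAMK2A. These genes too were chosen after their values were seen. The part of neuronal RNA in this count was not tested.

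CRH, corticotropin-releasing hormone, was the least certain of the peptides. It had 48 UMIs in 42 nuclei, 37 of them with 1 UMI. Inhibitory nuclei held it in 12 of 186 (6.45%) at 13.2 CPM (7.39 to 21.8), excitatory nuclei at 3.0 CPM in 15, and the background nuclei at 5.63 CPM in 3. The inhibitory level over the background had a log2 ratio of 1.05 (-0.59 to 3.66), so it could not be told from free RNA at this depth.

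Some excitatory nuclei carried interneuron peptides at levels above scattered single UMIs. In the cluster led by NTNG1, IQCJ and ESR2, 3 nuclei held 13, 5 and 4 SST UMIs and 2 held 21 and 13 PNOC UMIs, 1 nucleus having both. None of the 3 SST nuclei had a UMI of LHX6 or NXPH1, genes of MGE interneurons. The 4 nuclei together held 72 PCSK1 UMIs, at 1487 CPM, against 398 CPM in the other nuclei of the cluster (log2 ratio 1.90, 1.49 to 2.30). Other such nuclei carried interneuron genes as well. A nucleus of the ABI3BP cluster with 14812 UMIs held 4 SST, 3 PNOC, 2 TAC1 and 2 CRH UMIs beside 20 of NXPH1 and 132 of GRIK1, and was the only nucleus with 4 of the peptides. The 12 excitatory VIP carriers stood at 4408 CPM of ERBB4, against 284 CPM in the other excitatory nuclei, but 2 of them held 286 and 281 of the 661 UMIs and the median carrier had 5.5. No doublet caller was run, and the part of 2 nuclei sharing a barcode in these carriers was not tested.

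Overlap between peptides is given beside the share of all 2125 nuclei that carried the second gene, which was 2.59% for SST, 2.49% for VIP, 0.706% for NPY, 3.58% for PNOC, 2.02% for TAC1, 3.25% for PENK and 1.98% for CRH. Over all pre-processed nuclei SST and PNOC shared 11 nuclei, or 20% of SST carriers and 14.5% of PNOC carriers. SST and NPY shared 7 (12.7% of SST and 46.7% of NPY carriers), and PNOC and TAC1 shared 11 (14.5% and 25.6%). SST and VIP shared 1 nucleus (1.82% of SST carriers), and VIP and PNOC 2 (3.77% of VIP carriers), shares near those in all nuclei, and VIP and NPY shared 0. PENK shared no nucleus with PNOC and at most 2 with any other peptide. Of its 69 carriers 54 were excitatory, and 1.52% of excitatory nuclei carried PNOC. At such shares a count of 0 does not show that the 2 genes exclude each other. Within MGE-like nuclei 8 held SST and PNOC (34.8% of SST and 22.2% of PNOC carriers). The class shares were 41.9% for PNOC and 26.7% for SST, so this overlap was not above them. Within CGE-like nuclei 4 held PNOC and TAC1 (36.4% of PNOC and 66.7% of TAC1 carriers), where the class shares were 6% for TAC1 and 11% for PNOC. Within MGE-like nuclei TAC1 was found in 3 of the 28 with PNOC alone and 0 of the 8 with SST and PNOC. The class share of TAC1 was 9.30%, so no excess was seen there. Nuclei with PNOC and TAC1 were not all interneuron-like: an excitatory nucleus with 14812 UMIs and an unnamed one with 4465 UMIs were among them.

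**Figure D4:**
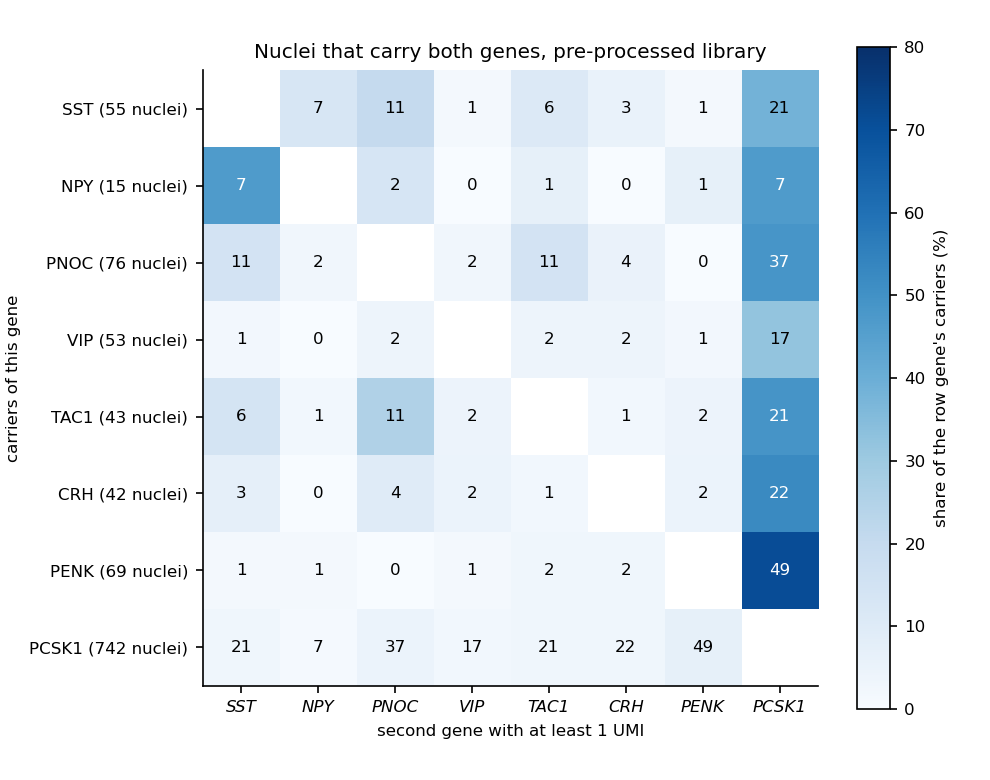
Nuclei of the pre-processed library with a UMI of both genes, for each pair of the 8 genes; cells give the number of shared nuclei and colour the percent of the row gene's carriers. The SST row shows 11 nuclei shared with PNOC and 1 with VIP, and the PENK row 49 shared with PCSK1.

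At least 1 of the 7 peptides was detected in 101 of 186 inhibitory nuclei (54.3%, 46.9 to 61.6), against 104 of 788 excitatory nuclei (13.2%, 10.9 to 15.8), 55 of the 412 nuclei of the shallow unnamed cluster (13.3%) and 16 of the 299 background nuclei (5.35%). The share was 65.1% in MGE-like nuclei (56 of 86) and 45% in CGE-like nuclei (45 of 100). At least 2 peptides were detected in 27 inhibitory nuclei (14.5%), of which 19 were MGE-like and 8 CGE-like, and in 11 excitatory nuclei (1.40%). These counts moved with depth: among MGE-like nuclei the median depth was 2596 UMIs with no peptide, 6603 with 1, 8578 with 2 and 11422 with 3.

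PCSK1 was by contrast higher in excitatory than in inhibitory nuclei, though the excitatory LAMB1 cluster stood lower than inhibitory nuclei. Of 186 inhibitory nuclei 67 carried it (36.0%) at 122 CPM (103 to 144), against 526 of 788 excitatory nuclei (66.8%, 63.3 to 70.0) at 365 CPM (350 to 380). MGE-like nuclei stood at 76.2 CPM (54.7 to 103) and CGE-like nuclei at 164 CPM (133 to 200), with a log2 ratio of MGE-like over CGE-like of -1.10 (-1.67 to -0.57). The background was 16 of 299 nuclei (5.35%) at 33.8 CPM. Inhibitory nuclei stood above it too, with a log2 ratio of 1.82 (1.14 to 2.65). Among excitatory clusters the level was 499 CPM in the ABI3BP cluster and 497 in the NTNG1 cluster, 373 in the FREM1 cluster, 315 in the FOXP2 cluster and 73.5 in the LAMB1 cluster, whose interval of 55.4 to 95.6 overlapped none of the other 4. The LAMB1 cluster was the deepest of them, with a median of 17024.5 UMIs, and the least clearly excitatory. Of 12 excitatory markers 5 were raised in it and 0 were among its leading genes, with a mean log2 ratio of 0.18. The unnamed cluster stood at 237 CPM in 106 of 412 nuclei.

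PCSK1 was unevenly spread among excitatory nuclei. The 40 nuclei with at least 10 UMIs held 801 UMIs, or 36.6% of the excitatory total, and 10 of them were among the 44 nuclei of the NTNG1 cluster. In nuclei with 0, 1 to 3, 4 to 9 and at least 10 PCSK1 UMIs (262, 345, 141 and 40 nuclei), HOMER1, a synaptic scaffold gene induced by activity, stood at 612, 954, 1625 and 3538 CPM. NR4A3, an activity-induced nuclear receptor, stood at 25.1, 50, 97.5 and 594 CPM, and PAM, which amidates peptides after cleavage, at 918, 1025, 1410 and 3273 CPM. Each of these was higher in every bin than in the one before. PENK stood at 9.1, 13.7, 26.2 and 47.0 CPM, but the intervals of neighbouring bins overlapped. Those of the first bin (4.72 to 15.9) and the last (31.2 to 67.9) did not. The share of PENK carriers was 14.2% in the third bin and 12.5% (5 of 40) in the last. Of the 28 PENK UMIs of the last bin, single nuclei held 11, 8 and 6. The bins were made from PCSK1 itself, differ in depth, and the genes were chosen after their values were seen.

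**Figure D5:**
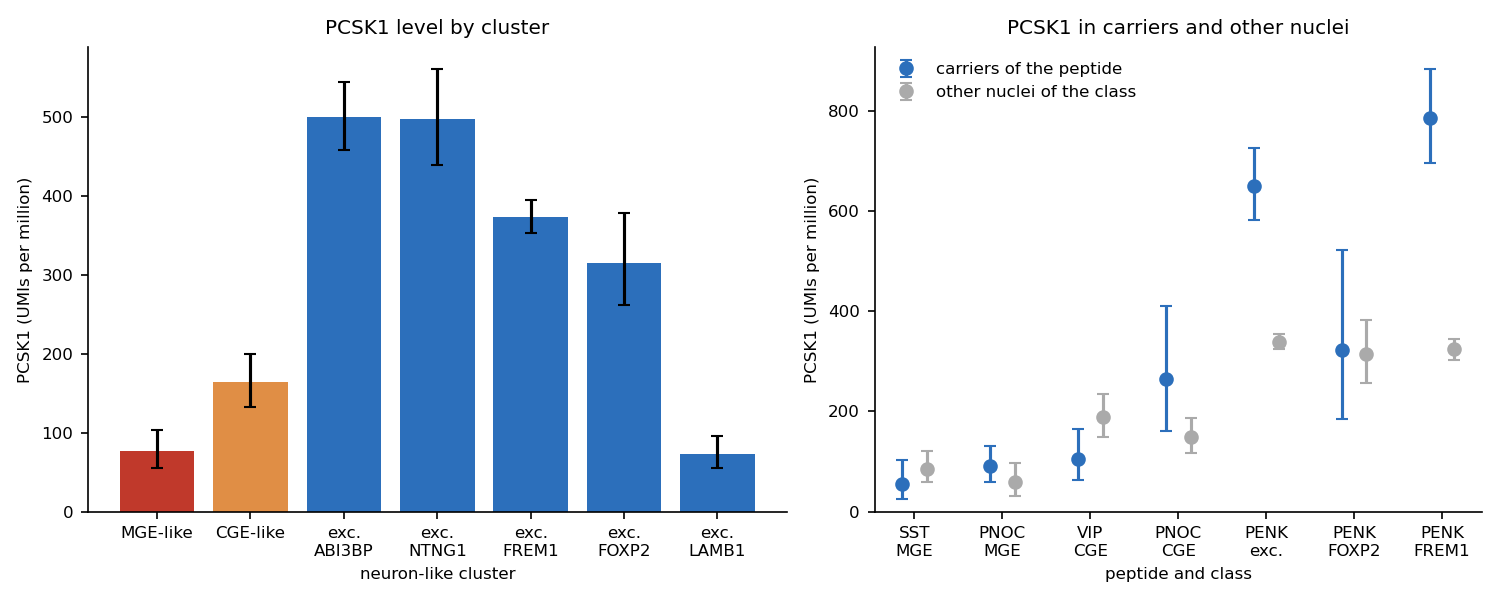
PCSK1 level (CPM, with exact 95% intervals) in the pre-processed library, by neuron-like cluster (left, excitatory clusters named by their leading gene) and in carriers of a peptide beside the other nuclei of the same class or cluster (right). The ABI3BP cluster stood at 499 CPM and the LAMB1 cluster at 73.5 CPM, and PENK carriers among excitatory nuclei stood at 651 CPM, against 339 CPM in the others. The carriers with 11, 8 and 6 PENK UMIs in the FREM1 cluster held 46 PCSK1 UMIs each.

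PCSK1 was found in 49 of 69 PENK carriers (71.0%), 37 of 76 PNOC carriers (48.7%), 21 of 55 SST carriers (38.2%) and 17 of 53 VIP carriers (32.1%). Of the 69 PENK carriers 54 were excitatory, and 66.8% of all excitatory nuclei carried PCSK1. Within the excitatory class 45 of the 54 PENK carriers had PCSK1 (83.3%), against 65.5% of the others. Among excitatory nuclei PENK carriers stood at 651 CPM of PCSK1, against 339 CPM in the others (log2 ratio 0.94, 0.76 to 1.11), with median depths of 8088 and 5537 UMIs. In the FREM1 cluster the values were 786 and 324 CPM (1.28, 1.08 to 1.47), and without the 3 nuclei richest in PENK, with 11, 8 and 7 PENK UMIs, they were 583 and 324 CPM (0.85, 0.61 to 1.08). The next richest nucleus of that cluster, with 6 PENK and 46 PCSK1 UMIs, was kept. The removed nuclei, with 11, 8 and 7 PENK UMIs, held 46, 46 and 7 PCSK1 UMIs. The class-wide values rest in part on the carriers with 46 PCSK1 UMIs, and were not recomputed without them. In the FOXP2 cluster PENK carriers and other nuclei stood at 322 and 314 CPM (0.07, -0.83 to 0.80), so the difference was not detectable there.

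Interneuron peptides showed smaller and less certain differences in PCSK1. VIP carriers stood at 106 CPM, against 189 CPM in the other CGE-like nuclei (log2 ratio -0.80, -1.64 to -0.10), and PNOC carriers of the same class at 265 against 149 CPM (0.85, 0.04 to 1.55). Among MGE-like nuclei SST carriers stood at 54.8 against 85.6 CPM (-0.59, -1.90 to 0.45) and PNOC carriers at 90.6 against 58.3 CPM (0.61, -0.35 to 1.68), both with intervals that include no difference. After thinning to 900 UMIs the VIP difference and the PNOC difference of MGE-like nuclei changed sign, at 0.99 and -0.53.

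Of 22 genes of peptide processing and dense-core vesicles, 11 were measured, and 10 besides PCSK1 could be compared between inhibitory and excitatory nuclei. Of these 2 were at least 2-fold higher in inhibitory nuclei, 1 was at least 2-fold lower and 7 lay within 2-fold, with a median log2 ratio of 0.07, against 0.01 over all genes. SCG2, the granin secretogranin II, stood at 164 against 45.7 CPM, PCSK5, another convertase, at 282 against 89.8 CPM, and CADPS2, which primes vesicles for release and is among the leading genes of the ABI3BP cluster, at 262 against 970 CPM. PAM stood at 1742 against 1323 CPM, but within interneurons at 3103 CPM in MGE-like and 517 CPM in CGE-like nuclei, the reverse order to PCSK1.

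Of 22 receptor and binding-protein genes for these peptides, 12 were measured and compared. In inhibitory nuclei 4 were at least 2-fold higher, 4 at least 2-fold lower and 4 within 2-fold, with a median log2 ratio of -0.02. Higher in inhibitory nuclei were CRHR2, a receptor of CRH-family peptides, at 43.1 against 2.0 CPM, TACR1, the substance P receptor, at 57.2 against 14.5 CPM, and ADCYAP1R1, the PACAP receptor, at 396 against 89.3 CPM. CRHBP, which binds CRH, had 12 UMIs in inhibitory nuclei and 1 in excitatory nuclei (log2 ratio 5.46, 3.23 to 11.40). Lower was NPY1R, a receptor of neuropeptide Y, at 9.68 against 30.2 CPM. The opioid receptors differed between interneuron classes: OPRD1, the delta receptor at which enkephalins act, stood at 262 CPM in MGE-like and 16.7 CPM in CGE-like nuclei, and OPRK1, the kappa receptor, at 7.43 and 73.6 CPM. Of 43 other peptide precursors 13 were measured and 5 compared, with 3 higher in inhibitory nuclei, 1 lower and 1 within 2-fold. The 3 were IGF1 (238 against 5.0 CPM), one of the genes that lead the CGE-like class, PTHLH (log2 ratio 4.19, 2.66 to 6.36) and NXPH4, whose interval included no difference at 5 and 8 UMIs (1.77, -0.23 to 3.52).

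Genes whose levels followed those of the peptides across the 974 neuron-like nuclei of the 1 library were mostly those of the same class. The highest Pearson correlations were 0.45 with COL6A2 and 0.43 with CRHR2 for SST, 0.48 with ASIC4 and 0.43 with IGF1 for VIP, and 0.46 with ALK and 0.42 with NXPH1 for PNOC. ALK and NXPH1 lead the MGE-like class and IGF1 the CGE-like class. For PCSK1 they were 0.39 with PDE10A, 0.38 with HOMER1 and 0.38 with NR4A3, and for PENK 0.21 with HOMER1 and 0.20 with NR4A3, so that the pair shared 2 of their leading genes. The nuclei share a library and differ in depth, and TAC1 passed no more than 0.24, with COL6A5.

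In the post-processed library the 8 genes were nearly absent. Over its 494 barcodes with at least 100 genes, PCSK1 had 0 UMIs, against 2527 UMIs (264 CPM) in the pre-processed library, and was at least 67.3-fold lower with 3 UMIs as the limit, where about 202 UMIs would have been seen at the pre-processed level. By the same limit SST had 0 UMIs, against 219 (22.9 CPM), and was at least 5.83-fold lower, VIP had 0 against 112 and was at least 2.98-fold lower, and TAC1 had 0 against 51 and was at least 1.36-fold lower. The exact intervals of the log2 ratio were weaker, reaching -5.77 for PCSK1, -2.23 for SST, -1.25 for VIP and -0.09 for TAC1. PNOC had 4 UMIs (5.23 CPM), against 208 (21.7 CPM; log2 ratio -1.89, -3.94 to -0.68), and PENK had 1 UMI against 131 (-2.81, -8.70 to -0.88). For CRH the libraries stood at 3.92 and 5.01 CPM (-0.15, -2.68 to 1.28), and for NPY, with 0 and 27 UMIs, no difference was detectable at this depth. With 0.5 counts added, 7 of the 8 genes were at least 2-fold lower in the post-processed library, against 24.1% of the 8344 genes compared, 32.0% being at least 2-fold higher. Of 5 neuronal genes set beside them, 4 were low there too, with SYT1 at 51.0 CPM in post-processed barcodes against 7338 CPM in pre-processed nuclei, CAMK2A at 3.92 against 1211 CPM, NXPH1 at 60.1 against 695 CPM and GRIN1 listed with 0 against 3338 UMIs. ERBB4, in contrast, stood at 3445 against 4082 CPM, but its UMIs there were not shown to lie in neurons. The post-processed barcodes with PNOC or CRH that held 207, 54 and 10 ERBB4 UMIs had 1, 0 and 0 of SYT1. They had 46, 8 and 8 of UGT8, an oligodendrocyte marker. The barcode with 207 ERBB4 UMIs, of 24968 UMIs, also had 64 of INPP5D and 28 of P2RY12, genes that lead the microglia-like cluster. Its RNA was thus not of the oligodendrocyte kind alone. The other barcodes with CRH had 26 and 19 of INPP5D and 0 of ERBB4. Fewer neurons and less RNA per neuron cannot be told apart, and the part of either in the difference was not tested.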

How the data were processed

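The deposited tables hold raw counts of UMIs per gene and barcode, made by the authors with DRAGEN, per the submitters' processing notes; the sources used here name neither its version nor a genome build, and genes of some chromosomes were not analysed here. The 8 genes and the gene lists were chosen with earlier results of these data known. Pre-processed nuclei were clustered with Seurat 5.3.0 in R 4.3.3 (2000 variable genes less the 8 genes, which left 1993 because 7 had been among them, 30 components, resolution 0.5), and clusters were named from marker lists that held none of the 8 genes, by a scoring rule written after the clusters were seen. No doublets were removed. Shares have exact Clopper-Pearson and sums exact Poisson intervals (Python 3.11.15, scipy 1.17.1). Ratios added 0.5 counts and took exact conditional binomial intervals, for genes with at least 10 UMIs in the 2 groups together; the ratio step was tested on simulated data. A count of 0 was given the limit of 3 counts. Named genes were the 8, up to 10 measured genes of each list, and up to 5 genes correlating at 0.2 or more with each of the 8 genes seen in at least 20 neuron-like nuclei; other genes set beside the 8 were chosen after their values were seen. With 1 library per condition there was no test.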

Additional observations from a re-analysis of the deposited data

How the results depend on the processing

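Of 129 values recomputed under other settings, 95 moved by less than their counting interval, 32 moved further and 2 changed sign. The sign changed for PCSK1 in PNOC carriers of MGE-like nuclei (-0.53 after thinning each nucleus to 900 UMIs, against 0.61) and in VIP carriers of CGE-like nuclei (0.99, against -0.80). Thinning lowered the carrier shares to 15.1% for SST and 11.6% for PNOC in MGE-like nuclei, 8% for VIP in CGE-like nuclei, and 1.27% for PENK and 26.1% for PCSK1 in excitatory nuclei, and SST carriers with PNOC to 7.14%; fewer UMIs per nucleus were left by construction. Asking for at least 2 UMIs gave 25.6% for PNOC, 15% for VIP, 2.79% for PENK and 44.9% for PCSK1 in the same classes, 83.3% of NPY carriers with SST, and a log2 ratio of 1.76 for PCSK1 in excitatory PENK carriers. Classes from marker UMIs without clustering gave 12.2% for SST, 20.4% for PNOC, 15.2% for VIP and 58.3% for PCSK1, and inhibitory over excitatory log2 ratios of 3.82 for SST and 5.82 for VIP; the cause was not tested. Among inhibitory nuclei alone, 33.3% of SST carriers had PNOC and 83.3% of NPY carriers had SST. The PENK value without 3 nuclei was added after seeing the data. No paired analysis was possible because each condition is 1 library, which also leaves no replicate to leave out. Depth limits the shares of carriers, and NPY, TAC1 and CRH rest on 27, 51 and 48 UMIs.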
